A study of Mus musculus with 18 samples.

Results

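The 10 genes described here mark segments of the mouse nephron. They were read in RNASeq data of primary murine RPTEC, where their transcripts ranged from none at all to a moderate level. The 10 genes, chosen by name from the 36528 genes in the files, were Lrp2, Cubn, Aqp1, Anpep, Ggt1, Umod, Calb1, Aqp2, Aqp3 and Cdh16. All 10 were present in the files, and 5 of them (Lrp2, Cubn, Anpep, Ggt1 and Cdh16) had enough reads to be tested, which required at least 4 samples with more than 10 reads. The cells were renal epithelial cells of C57BL/6 mice from a commercial supplier, named mRPTEC in the labels and called tubulointerstitial epithelial cells in the growth protocol. They were treated with vehicle (DMSO), with recombinant mouse TWEAK at 100 ng/mL, or with TWEAK at 100 ng/mL and 3 μM NIK SMI1, and were collected at 6 h or at 24 h, which gave 6 groups of 3 samples. No group had NIK SMI1 without TWEAK, and the sources used here do not tie the 3 samples of a group to separate animals or cell preparations, so that p-values measure the spread between these samples, which may be technical.

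The nephron is a tube whose consecutive segments carry different transport proteins. The proximal tubule reclaims filtered protein, glucose, amino acids and phosphate, the thick ascending limb and distal segments reclaim salt and minerals, and the collecting duct sets the final reabsorption of water. Renal epithelial cells are known to lose many of these transport proteins in culture. TWEAK is a cytokine of the TNF family that signals through its receptor Fn14 to NF-κB, and NIK is the kinase on which the non-canonical branch of that pathway depends.

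Of the 10 genes, 4 are used as markers of the proximal tubule. Lrp2 (Entrez Gene 14725, chromosome 2) encodes megalin and Cubn (65969, chromosome 2) encodes cubilin, the large receptors that take up filtered protein together. Anpep (16790, chromosome 7), or aminopeptidase N, and Ggt1 (14598, chromosome 10), a gamma-glutamyltransferase, are enzymes of the brush border. Aqp1 (11826, chromosome 6) is the water channel of the proximal tubule and the thin descending limb. Umod (22242, chromosome 7), which encodes uromodulin, marks the thick ascending limb. Calb1 (12307, chromosome 4) encodes the calcium-binding protein calbindin of the distal convoluted and connecting tubule. Aqp2 (11827, chromosome 15) and Aqp3 (11828, chromosome 4) are the water channels of the apical and basolateral membranes of collecting duct principal cells. Cdh16 (12556, chromosome 8) encodes a kidney cadherin (Ksp-cadherin) that is found along the tubule and is not restricted to a single segment.

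The libraries held 18040966 to 51956444 reads on genes (median 35374254), so that 3 reads, the smallest count taken here as a level, corresponded to 0.0577 to 0.166 counts scaled to a common library total (CPM). All 18 samples were compared as 6 groups with the quasi-likelihood test of edgeR on the counts, and a gene was called at an adjusted p below 0.05 over the 15521 tested genes. With 3 samples in each arm, the smallest p of an exact permutation test is 0.1, so overlap between the samples of 2 groups is given beside the edgeR result. Reads of Ins2, an insulin gene of pancreatic islets, were found in 14 of the 18 libraries, and there were 0 in TWEAK sample 2 and in all 3 samples with NIK SMI1 at 24 h. The comparisons that involve these libraries are given with their values below.

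Promoter sequence was available for 8 of the 10 genes, with 11 start sites among them (RefSeq, build GRCm38.p6). The 250 bases before each start site were searched on both strands for the κB consensus, the letters that NF-κB binds. It was found at 1 of the 4 start sites of Ggt1, at 177 bases before the start, in none of the other promoters of the markers, and in 7.25% of the 32851 promoters searched. The sequences are shown for that start site of Ggt1 and for Cubn, the marker called as lower with TWEAK at both time points. Each is given 5′ to 3′ on the strand of the gene. Capitals mark the match. The window of Ggt1 lies on the plus strand at chr10:75571310-75571559 and that of Cubn on the minus strand at chr2:13491877-13492126.
Ggt1: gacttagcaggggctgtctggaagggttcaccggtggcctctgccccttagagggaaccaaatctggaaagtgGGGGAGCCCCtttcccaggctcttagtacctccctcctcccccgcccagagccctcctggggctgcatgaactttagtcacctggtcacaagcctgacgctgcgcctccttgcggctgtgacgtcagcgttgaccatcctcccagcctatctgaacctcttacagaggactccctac
Cubn: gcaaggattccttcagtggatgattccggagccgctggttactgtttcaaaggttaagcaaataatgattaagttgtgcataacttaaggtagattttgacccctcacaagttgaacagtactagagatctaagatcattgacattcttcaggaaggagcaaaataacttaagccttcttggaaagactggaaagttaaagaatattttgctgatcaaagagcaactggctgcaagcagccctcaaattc

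The levels of the 10 genes were compared per length, as the deposited RPKM values (reads scaled by the exonic length and by the library total). Cdh16 was the highest, at 7.71 ± 1.11 RPKM (SD over the 18 samples), and its lowest sample, at 5.43, lay above every sample of the other 9 genes. Its mean level was above that of 52.7% of the tested genes. Ggt1 followed at 0.524 ± 0.204 and Cubn at 0.269 ± 0.0689 RPKM. Their ranges overlapped, from 0.130 to 0.834 for Ggt1 and from 0.163 to 0.394 for Cubn, although Ggt1 was above Cubn in 15 of the 18 samples. Only 16.1% of the tested genes had a lower mean level than Ggt1 and 10.7% a lower one than Cubn.

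The other proximal tubule markers were barely detected. Aqp1 was at 0.0694 ± 0.0373 RPKM and Anpep at 0.0549 ± 0.0230 RPKM, and their order was not fixed, with Aqp1 above Anpep in 10 of 18 samples. Lrp2 was at 0.0144 ± 0.00909 RPKM, with 2 to 15 reads per sample and 137 reads in all, over an exonic length of 15467 bases. The mean of Cdh16 was 535 times that of Lrp2 and 28.7 times that of Cubn, and Cubn was therefore the more abundant transcript of the receptor pair.

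Of the markers of later segments, none had more than a trace. Aqp3 was at 0.0291 ± 0.0346 RPKM, with 30 reads in 13 samples and at least 3 reads in 5 samples. Its range overlapped those of Anpep above it and Lrp2 below it. Aqp2 had 2 reads, both in NIK SMI1 sample 3 at 24 h, and Calb1 had 3 reads in 2 samples, 1 in a TWEAK sample at 6 h and 2 in a TWEAK sample at 24 h. Umod had 0 reads in all 18 samples. At these depths 3 reads of Umod correspond to 0.0209 to 0.0599 RPKM, so that a lower level was not detectable.

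**Figure D1:**
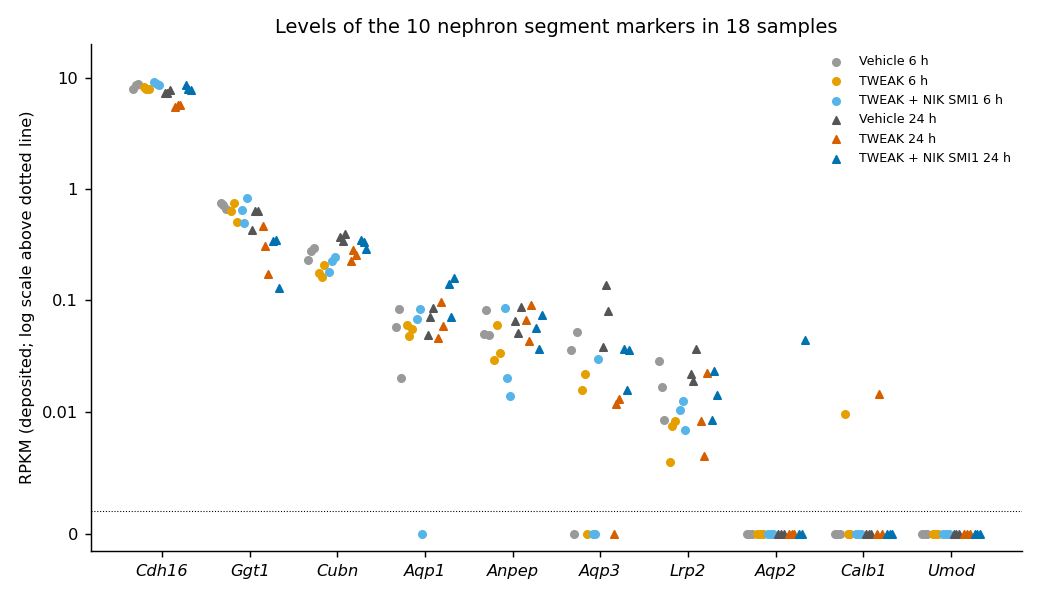
Deposited RPKM of the 10 nephron segment markers in the 18 samples, ordered by mean level. Each point is 1 sample, colour and shape give the group, the y axis is logarithmic above the dotted line, and samples without reads are drawn below it at 0. Cdh16 lies above all others, from 5.43 to 9.04 RPKM, and Umod lies at 0 in all 18 samples.

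Among other genes of the same segments, a few transcripts were present and many were absent. Of 27 further proximal tubule genes, 9 had enough reads to be tested, 6 had a mean level above 1 RPKM and 5 had no read in any sample. Ass1, an enzyme of arginine synthesis, was the highest at 25.7 RPKM, followed by the bicarbonate cotransporter Slc4a4 at 20.4 RPKM and the amino acid transporter subunit Slc3a1 at 3.74 RPKM. The glucose transporter Slc5a2 was at 3.09 RPKM. In contrast, the phosphate transporter Slc34a1 had 3 reads in all, the organic anion transporter Slc22a6 had 1 read, and Slc22a8, Slc22a12, Slc7a13, Miox and Kap had 0. The median over the 27 genes was 0.00313 RPKM.

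For the thick ascending limb, 2 of 8 further genes were tested and the highest, Ppp1r1a, was at 0.160 RPKM. The salt cotransporter Slc12a1 had 19 reads in all. For the distal convoluted and connecting tubule, 2 of 9 genes were tested, led by the kinase Wnk4 at 0.854 RPKM, and Pvalb, Trpv5 and Klk1 had no read. For collecting duct principal cells, 3 of 10 genes were tested, led by the steroid dehydrogenase Hsd11b2 at 2.5 RPKM and the sodium channel subunit Scnn1a at 0.974 RPKM. None of the 10 intercalated cell genes was tested, and the highest, Slc4a9, was at 0.0456 RPKM.

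Epithelial and renal lineage genes were all well detected. The 9 genes of this list were tested, from Pax2 at 8.32 RPKM and Pax8 at 15.0 RPKM, transcription factors of the renal lineage, to Krt7 at 1868 RPKM and Krt18 at 2202 RPKM. Renal epithelial markers were thus present in the labelled cells, while the transcripts of megalin and of most proximal transporters were near or at 0.

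**Figure D2:**
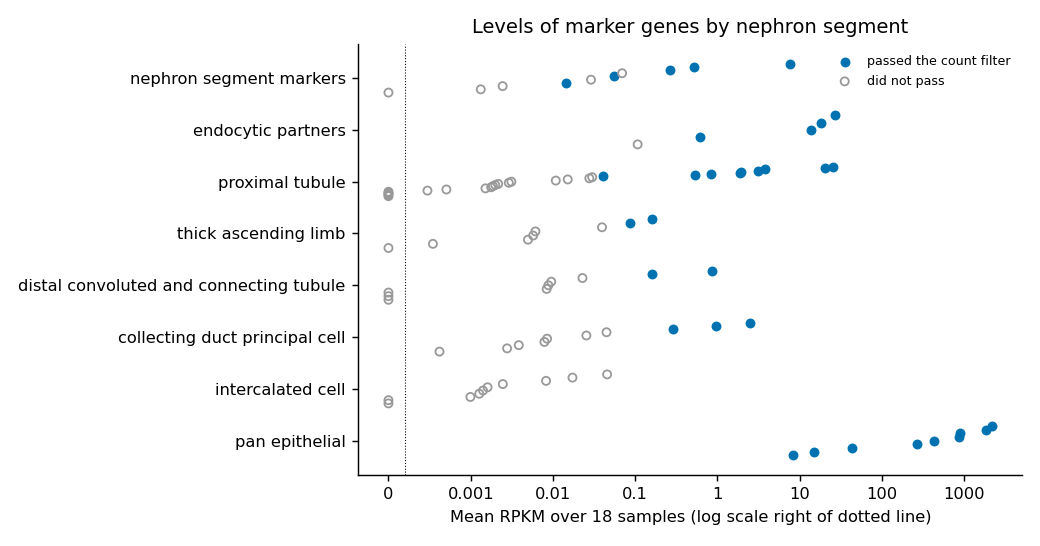
Mean RPKM over the 18 samples of the genes in 8 lists, on an axis that is logarithmic right of the dotted line, with genes without reads at 0. Filled points are genes with more than 10 reads in at least 4 samples and open points are the others. The 9 epithelial and renal lineage genes lie at 8.32 RPKM or above, and the 10 intercalated cell genes lie at 0.0456 RPKM or below.

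Markers of other cell types were mostly low. Of 6 endothelial genes 2 were tested, of 7 fibroblast genes 3 and of 7 leukocyte genes 1. The highest of each list were Egfl7 at 2.15 RPKM, Col1a1 at 2.23 RPKM and Cd68 at 7.08 RPKM, while the endothelial gene Emcn and the leukocyte genes Tyrobp and Cd3e had no read. Of 5 podocyte genes 3 were tested, with Podxl, a sialomucin that other epithelia also express, at 59.5 RPKM and nephrin (Nphs1) at 2 reads in all. Of 6 urothelial genes 4 were tested, with Krt20 at 499.6 RPKM and the uroplakins Upk1a and Upk1b at 1.33 and 0.264 RPKM. All 4 genes of the Y chromosome in the list had reads in all 18 samples.

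The comparison of TWEAK with vehicle asks which of these markers respond to the cytokine. At 6 h, Cubn was the only tested marker called as lower with TWEAK, and at 24 h Cubn, Ggt1 and Cdh16 were called as lower. No marker was called as higher at either time point. In bulk RNA, fewer cells of a type and less RNA per cell cannot be told apart. At 6 h, 1 of the 5 tested markers was called, and 23.7% of all tested genes were called in this comparison. At 24 h, 3 of the 5 were called, against 39.0% of all tested genes. Over the 5 tested markers the median was -0.45 at 6 h and -0.51 at 24 h on the log2 scale, and over all tested genes it was -0.01 at 24 h.

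Cubn was at 2.69, 3.26 and 3.50 CPM in the vehicle samples at 6 h and at 2.10, 1.93 and 2.40 CPM with TWEAK. All TWEAK samples lay below all vehicle samples, and the log2 fold change was -0.57 (SE 0.15, adjusted p = 0.0044, edgeR). At 24 h, Cubn was at 4.35, 4.06 and 4.64 CPM with vehicle and at 2.64, 3.36 and 3.01 CPM with TWEAK. The groups again did not overlap, and the log2 fold change was -0.51 (SE 0.14, adjusted p = 0.00528, edgeR). The difference between both effects was 0.05 on the log2 scale (95% interval from -0.36 to 0.47, adjusted p = 0.933, edgeR interaction term). Of the exonic bases of Cubn in the GENCODE M21 annotation, 2.46% were shared with Gm13270 on the opposite strand, and the library kit does not keep the strand.

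Cdh16 was at 27.1, 29.6 and 30.2 CPM with vehicle at 6 h and at 28.3, 27.2 and 27.1 CPM with TWEAK. These samples overlapped, and the log2 fold change of -0.07 (95% interval from -0.17 to 0.04) did not pass the test (adjusted p = 0.392, edgeR). At 24 h, Cdh16 was at 25.4, 25.3 and 26.7 CPM with vehicle and at 18.7, 19.5 and 19.5 CPM with TWEAK. The TWEAK samples all lay lower, with a log2 fold change of -0.42, or 1.34-fold lower (SE 0.05, adjusted p = 5.75e-07, edgeR). The TWEAK effect differed between the time points by -0.35 on the log2 scale (SE 0.07, adjusted p = 0.0021, edgeR interaction term). This was the only one of the 5 tested markers for which this term was called, and 8.91% of all tested genes were called by it.

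Ggt1 was at 1.85, 1.79 and 1.66 CPM with vehicle at 6 h and at 1.58, 1.89 and 1.24 CPM with TWEAK, with overlapping samples and a log2 fold change of -0.14 (adjusted p = 0.777, edgeR). At 24 h it was at 1.08, 1.57 and 1.56 CPM with vehicle and at 1.15, 0.771 and 0.430 CPM with TWEAK. TWEAK sample 1 lay above vehicle sample 1, and the log2 fold change was -0.88 (SE 0.32, adjusted p = 0.0309, edgeR). This call rested on single libraries. It was lost without vehicle sample 2 (adjusted p = 0.0941), vehicle sample 3 (0.0952), TWEAK sample 2 (0.0647) or TWEAK sample 3 (0.199), all by edgeR, with log2 fold changes from -0.92 to -0.56.

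Lrp2 and Anpep gave no call with TWEAK. Lrp2 had 14, 10 and 7 reads in the vehicle samples at 6 h and 2, 6 and 5 reads with TWEAK. On the CPM scale the TWEAK samples lay below the vehicle samples, from 0.0574 to 0.132 against 0.135 to 0.454 CPM, and the log2 fold change of -1.29 (SE 0.60) did not pass the test (adjusted p = 0.135, edgeR). At 24 h, Lrp2 had 15, 6 and 12 reads with vehicle and 3, 3 and 15 reads with TWEAK, with a log2 fold change of -1.08 (95% interval from -2.20 to 0.04, adjusted p = 0.125, edgeR). Single libraries decided both results. Without vehicle sample 3 the 6 h value was -1.71 (adjusted p = 0.0465), and without TWEAK sample 3 the 24 h value was -2.16 (adjusted p = 0.0134), both past the threshold by edgeR. Anpep had 1 to 15 reads per sample, and its log2 fold change was -0.45 at 6 h (95% interval from -1.47 to 0.58) and -0.02 at 24 h (from -1.04 to 1.0).

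**Figure D3:**
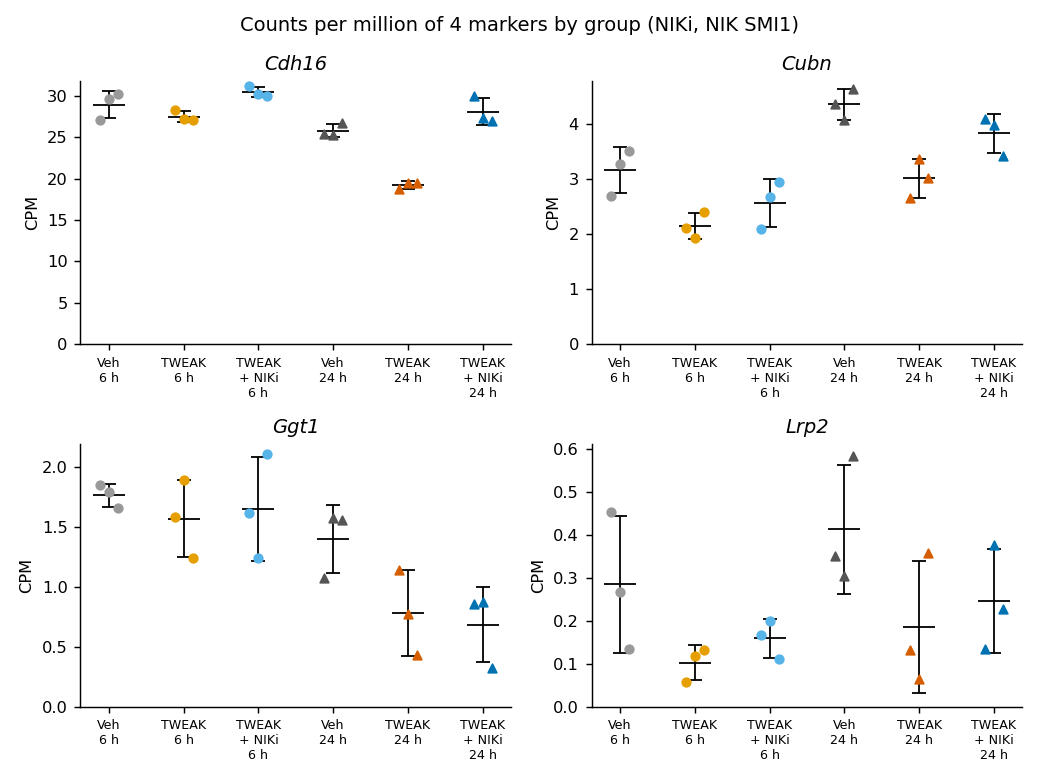
Reads per library total (CPM) of Cdh16, Cubn, Ggt1 and Lrp2 in the 18 samples by group. Points are samples, and the bar and whiskers are the mean and SD of 3 samples. Cdh16 with TWEAK at 24 h lies at 19.2 ± 0.442 CPM, below the other 5 groups. Lrp2 with TWEAK at 6 h lies below both vehicle groups, and with TWEAK at 24 h it overlaps vehicle.

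Of the markers with too few reads for the fit, Aqp3 had 3, 5 and 3 reads with vehicle at 24 h, 0, 1 and 1 with TWEAK, and 3, 1 and 2 with TWEAK and NIK SMI1. As CPM, the TWEAK samples (at most 0.0239) lay below the vehicle samples (at least 0.0702) and below the samples with NIK SMI1 (at least 0.0290). The exact permutation test gave p = 0.1 for each of these comparisons, the smallest it can give for 3 against 3, or 0.4 after adjustment over the 8 tests of Aqp1 and Aqp3. All TWEAK samples of Aqp3, and NIK SMI1 samples 2 and 3, were under 3 reads, so no fold change is given. The highest TWEAK sample and the lowest NIK SMI1 sample had 1 read each, so their order came from library size only. Aqp1 had 0 to 18 reads per sample. At 24 h it was at 0.193 ± 0.0762 CPM with TWEAK alone and at 0.355 ± 0.134 CPM with NIK SMI1 added (SD, n = 3 each, exact permutation p = 0.2, 0.533 after adjustment). Umod was at 0 in every group, and Calb1 and Aqp2 were under 3 reads in every sample.

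The comparison of TWEAK and NIK SMI1 with TWEAK alone asks which of the markers depend on NIK under TWEAK. It shares the TWEAK samples with the comparison before, so that a low TWEAK sample enters both. At 6 h none of the 5 tested markers was called (0 of 5), while 11.0% of all tested genes were. At an unadjusted p below 0.05, edgeR gave 1 of the 5, Cdh16, and DESeq2 called 0 after adjustment. At 24 h, 1 of 5 was called, against 18.5% of all tested genes, and this was Cdh16.

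Cdh16 was at 31.2, 30.3 and 30.0 CPM with NIK SMI1 at 6 h, above all 3 TWEAK samples, with a log2 difference of 0.15 (SE 0.05, adjusted p = 0.0716, edgeR). At 24 h it was at 30.0, 27.4 and 26.9 CPM with NIK SMI1, against 18.7 to 19.5 CPM with TWEAK. The rise was 0.54 on the log2 scale (SE 0.05, adjusted p = 1.06e-08, edgeR). The NIK SMI1 effect was larger at 24 h than at 6 h by 0.40 (SE 0.07, adjusted p = 0.00165, edgeR interaction term), a term that was called for 1 of the 5 tested markers and for 4.73% of all tested genes.

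The other tested markers did not pass. Cubn was at 4.08, 3.97 and 3.41 CPM with NIK SMI1 at 24 h, above the 3 TWEAK samples, with a log2 difference of 0.33 (95% interval from 0.04 to 0.61, adjusted p = 0.109, edgeR). At 6 h it was at 2.09, 2.68 and 2.94 CPM, overlapping the TWEAK samples (log2 difference 0.23, adjusted p = 0.439, edgeR). Ggt1 with NIK SMI1 at 24 h was at 0.857, 0.870 and 0.325 CPM, within the spread of the TWEAK samples, with a log2 difference of -0.06 (95% interval from -0.76 to 0.63). Lrp2 differed by 0.33 (95% interval from -0.84 to 1.5) and Anpep by -0.26 (from -1.25 to 0.74) at 24 h.

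The pancreatic islet reads moved with the groups at 24 h. Of the 11 islet genes, 10 had reads, and Ppy had none. Their summed level was 20 to 27.1 RPKM with vehicle, 0.328 to 18.9 RPKM with TWEAK and 0.0855 to 0.146 RPKM with TWEAK and NIK SMI1. Ins2, which encodes insulin, had 151, 0 and 85 reads in the TWEAK samples at 24 h and 0 in all 3 samples with NIK SMI1. Of the 9 tested islet genes, 5 were lower with TWEAK than with vehicle at 24 h, against 39.0% of all tested genes called in either direction. With NIK SMI1, 8 were lower than with TWEAK alone at 24 h, against 18.5%. None was called at 6 h, against 23.7% and 11.0% of all tested genes in these comparisons. Without the 2 TWEAK libraries at 24 h that hold Ins2 reads, TWEAK sample 2 stood alone and was assumed to vary like the other groups. Only effect sizes on the log2 scale are given here. Cdh16 was 0.53 higher with NIK SMI1 than with TWEAK alone, where both arms had 0 reads of Ins2. The TWEAK effect against vehicle at 24 h was -0.41 for Cdh16, -0.38 for Cubn, -0.81 for Ggt1 and -2.59 for Lrp2. Lrp2 had 3 reads in that TWEAK sample. The vehicle samples at 24 h had 437, 164 and 150 reads of Ins2. In these values against vehicle, TWEAK and the absence of Ins2 reads therefore cannot be told apart.

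**Figure D4:**
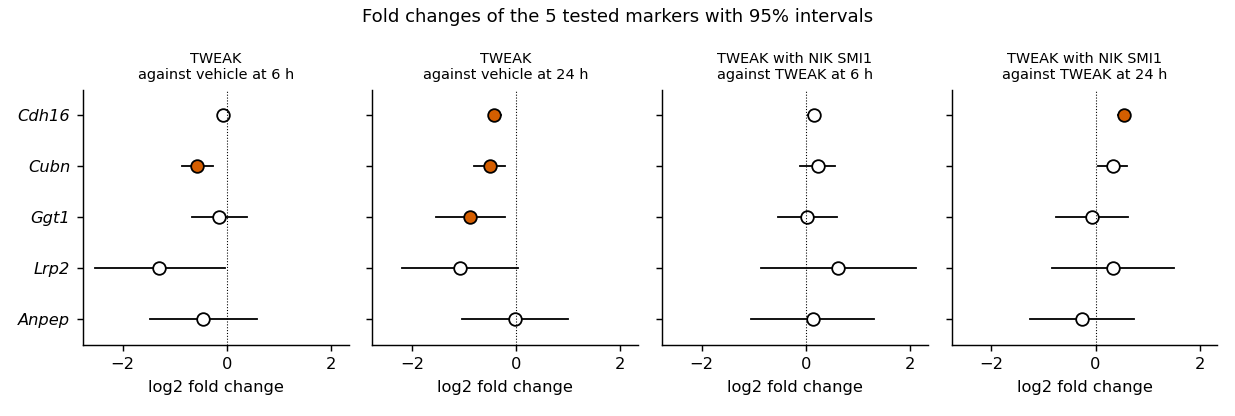
Log2 fold changes of the 5 tested markers in 4 comparisons, with 95% intervals from edgeR. Filled points passed an adjusted p below 0.05. Cdh16 has the narrowest interval in each panel, and the intervals of Lrp2 and Anpep are the widest.

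TWEAK with NIK SMI1 was also compared with vehicle, to ask how far the markers stayed from the untreated level. At 6 h none of the 5 tested markers was called in this comparison (0 of 5 by edgeR and by DESeq2, 1 of 5 at an unadjusted p below 0.05, Cubn), against 13.9% of all tested genes. The Cubn difference was -0.34 on the log2 scale (adjusted p = 0.151, edgeR). At 24 h 1 of 5 was called, against 17.9% of all tested genes. This was Ggt1, at a log2 fold change of -0.94 (SE 0.32, adjusted p = 0.0409, edgeR), with all samples below the vehicle samples. The call was lost without vehicle sample 2 (adjusted p = 0.126), vehicle sample 3 (0.127) or NIK SMI1 sample 3 (0.189), with log2 fold changes of -0.85, -0.85 and -0.65. Cdh16 was 0.12 above vehicle at 24 h, with all 3 samples above all vehicle samples, but did not pass the test (95% interval from 0.02 to 0.23, adjusted p = 0.111, edgeR). Cubn differed from vehicle by -0.18 (95% interval from -0.47 to 0.10). At 24 h the vehicle samples had 437, 164 and 150 reads of Ins2 and the samples with NIK SMI1 had 0. All 9 tested islet genes were lower in this comparison, against 17.9% of all tested genes called in either direction. Treatment and islet reads therefore cannot be told apart in these 24 h differences.

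The vehicle samples at 24 h and 6 h differed in 2 of the 5 tested markers, against 29.9% of all tested genes. Cdh16 fell by 0.24 on the log2 scale from 6 h to 24 h (log2 fold change -0.24, SE 0.05, adjusted p = 0.000859, edgeR). Cubn rose by 0.39 (SE 0.14, adjusted p = 0.0384, edgeR), from 3.15 ± 0.418 to 4.35 ± 0.289 CPM (SD, n = 3 each). The samples of both genes separated by time. The Cubn call was lost without vehicle sample 1 or 2 at 6 h or vehicle sample 1 or 3 at 24 h, with log2 fold changes from 0.30 to 0.40 and adjusted p from 0.067 to 0.145. Ggt1, at a log2 fold change of -0.44 with all 24 h samples below the 6 h samples, did not pass the test (adjusted p = 0.257, edgeR).

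Megalin and cubilin work with other proteins in uptake, and 4 of these are given here. Amn encodes amnionless, which brings cubilin to the surface, and had 119 reads in 17 samples, too few to be tested. The adaptor Dab2 was at 0.611 RPKM, the megalin chaperone Lrpap1 at 13.9 RPKM and the endosomal chloride transporter Clcn5 at 27.3 RPKM. With TWEAK at 6 h, Dab2 rose by 0.50 (SE 0.14, adjusted p = 0.00944, edgeR) and Lrpap1 fell by 0.15 on the log2 scale (log2 fold change -0.15, adjusted p = 0.0142). At 24 h, Lrpap1 (log2 fold change -0.19, adjusted p = 0.00162) and Clcn5 (-0.11, adjusted p = 0.0388) fell. None of Dab2, Lrpap1 and Clcn5 was called for NIK SMI1 against TWEAK at 6 h or 24 h, against 11.0% and 18.5% of all tested genes.

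Among the other proximal tubule genes, TWEAK lowered 2 and raised 1 of the 9 tested at 6 h, against 23.7% of all tested genes called in either direction, and lowered 3 and raised 1 at 24 h, against 39.0%. The median log2 fold change of the 9 was 0.11 at 6 h and -0.04 at 24 h, and that of all tested genes was -0.01 at 24 h. Slc4a4 fell by 0.35 at 6 h and by 1.13 at 24 h on the log2 scale (log2 fold changes -0.35 and -1.13, adjusted p = 9.21e-07 and 1.44e-16, edgeR). Its mean level at 24 h was 197 ± 2.32 CPM with vehicle and 89.5 ± 3.81 CPM with TWEAK (SD, n = 3 each). The neutral amino acid transporter Slc6a19 fell at both times (-0.72 and -0.89), and the peptidase Mme fell at 24 h (-0.57). Ass1 rose at both times (0.29 and 0.75).

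With NIK SMI1 at 24 h, 3 of the 9 were higher than with TWEAK alone and 1 was lower, against 18.5% of all tested genes called in either direction. Slc4a4 was 0.46 higher, Slc6a19 0.54 higher and Mme 0.61 higher, and Ass1 differed by -0.67 (adjusted p from 4.31e-11 to 0.000651, edgeR). At 6 h, Slc6a19 was 0.44 higher (adjusted p = 0.00537) and Ass1 lower, at -0.23 (adjusted p = 0.0017). The median log2 difference of the 9 was -0.11 at 6 h and 0.15 at 24 h.

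Of the genes of later segments that were tested, Wnk4 fell with TWEAK by 0.60 at 6 h and by 1.45 at 24 h on the log2 scale (log2 fold changes -0.60 and -1.45, adjusted p = 0.00199 and 4.81e-09, edgeR). It was 1 of 2 tested genes of the distal convoluted and connecting tubule. Of the 3 tested principal cell genes, the transcription factor Gata3 rose at 6 h (2.11) and 24 h (2.27), Hsd11b2 rose at 24 h (0.56) and Scnn1a fell at 24 h (-1.01). Hsd11b2 was lower (-0.45) and Scnn1a higher (0.48) with NIK SMI1 than with TWEAK alone at 24 h. Neither of the 2 tested thick ascending limb genes, Egf and Ppp1r1a, was called for TWEAK against vehicle or for NIK SMI1 against TWEAK. Of all tested genes, 23.7% were called for TWEAK against vehicle at 6 h and 39.0% at 24 h. For NIK SMI1 against TWEAK the shares were 11.0% and 18.5%. Against vehicle at 24 h, Ppp1r1a was lower with TWEAK and NIK SMI1 (adjusted p = 0.00649, edgeR), with 20, 2 and 4 reads in the vehicle samples and 0, 2 and 0 reads in the samples with NIK SMI1. Those 3 samples also had 0 reads of Ins2, and the part of the islet reads in this call was not tested.

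The nearest relatives of the markers were read in the same samples. Of 9 other aquaporins 2 were tested, Aqp8 at 0.182 RPKM and Aqp11 at 0.370 RPKM, and Aqp11, a channel of the endoplasmic reticulum, fell with TWEAK at 6 h (-1.25, adjusted p = 0.00912, edgeR). Of the other gamma-glutamyltransferases, Ggt6 and Ggt7 rose with TWEAK at 24 h (1.88 and 1.92, adjusted p = 0.0119 and 0.000792, edgeR) from very low levels, at 0.0626 and 0.113 RPKM over the 18 samples. Ggt7 was lower with NIK SMI1 than with TWEAK alone at 24 h (-1.63, adjusted p = 0.00291).

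All 5 other epithelial cadherins were above Cdh16 in mean level, from Cdh6 at 9.73 RPKM to E-cadherin (Cdh1) at 267.3 RPKM. With TWEAK at 24 h 4 fell and 1 rose, against 39.0% of all tested genes called in either direction. Cdh6, a cadherin of the developing proximal tubule, fell by 1.10 on the log2 scale (log2 fold change -1.10, SE 0.05, adjusted p = 4.16e-16, edgeR), while Cdh17 (-0.29), Cdh2 (-0.20) and Cdh1 (-0.11) fell by less. P-cadherin (Cdh3) rose by 0.38 (adjusted p = 3.21e-11). With NIK SMI1 at 24 h, Cdh6 was 0.51 higher (adjusted p = 1.17e-08) and Cdh2 0.18 higher (adjusted p = 0.000369) than with TWEAK alone, and Cdh3 differed by -0.12 (adjusted p = 0.00404). At 6 h with TWEAK, Cdh6 (-0.68) and Cdh2 (-0.33) fell and Cdh3 (0.48), Cdh17 (0.23) and Cdh1 (0.08) rose. Of all tested genes, 23.7% were called in either direction in that comparison.

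All 9 genes of the epithelial and renal lineage list were called with TWEAK at both time points. At 6 h 3 went upward and 6 downward, and at 24 h 2 went upward and 7 downward. Of all tested genes, 23.7% were called at 6 h and 39.0% at 24 h. The 9 genes had from 24828 (Pax2) to 2611779 (Krt18) reads over the 18 samples, so that small changes could be called. Pax2 (-0.48) and Pax8 (-0.32) fell at 24 h. Epcam rose by 0.90 (adjusted p = 5.76e-18, edgeR) and Krt19 fell by 0.87 on the log2 scale (log2 fold change -0.87). Both Pax2 (0.21) and Pax8 (0.31) were higher with NIK SMI1 than with TWEAK alone at 24 h. In that comparison 6 of the 9 genes were higher and 1 lower, against 18.5% of all tested genes called in either direction.

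The genes whose log2 CPM followed each tested marker most closely over the 18 samples are given as a description, since the points share groups and libraries. For Cdh16 they were Ddrgk1 (Pearson r = 0.921), Mfsd6 (0.911) and Dennd2d (0.911). For Cubn they were Klhl36 (0.922), Slc25a48 (0.922) and Tctn3 (0.919), and for Ggt1 they were Nrk (0.892), 1700001L05Rik (0.864) and Tspan1 (0.853). For Lrp2 (Ostm1, 0.799) and Anpep (Klf1, 0.821) the closest genes were less alike, at 2 to 15 and 1 to 15 reads per sample.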

How the data were processed

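RNASeq was read from 18 samples of murine RPTEC. The authors aligned the reads to NCBI build 37 of the mouse genome with GSNAP through HTSeqGenie and deposited, for each gene, raw counts of uniquely aligned reads within exons, together with RPKM, scaled by exonic length and total reads. The labels also name DESeq2. Groups were taken from the agent and time labels, and replicate numbers only name samples. The 10 markers and all gene lists were chosen with earlier results of these data known. Identifiers were matched to symbols for 31049 of 36528 genes (RefSeq, GRCm38.p6), and no position was converted between builds. Genes with more than 10 reads in at least 4 samples (15521) were fitted in edgeR 4.0.16 (R 4.3.3) with TMM, 6 groups and the quasi-likelihood test, two-sided, with Benjamini-Hochberg adjustment. SEs were derived from its F statistic. The CPM values are counts over total counts. RPKM entered no test. Samples of the same group differed by more than sampling noise (chi-square per gene 2.19 to 9.95 over 18 pairs). The fit was tested on simulated counts in which only genes with more reads than Lrp2 or Anpep were changed. That test does not cover markers with so few reads. The 95% intervals of fold changes come from the SEs and include the spread between samples, while floors cover counting error only. All 10 markers and the endocytic partners were named, apart from items that are not reported here. From other lists, called genes (the 3 largest changes per list and comparison) and the 3 highest were named, and genes named for 0 or very few reads were chosen after their values were seen. Alternatives were DESeq2 1.42.0, its size factors, no filter, filterByExpr, each time point alone and each sample left out. A further alternative, without the TWEAK libraries with Ins2 reads at 24 h, was added after the data were seen.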

Additional observations from a re-analysis of the deposited data

Results flagged for a closer look

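The response of Cdh16 differed between the time points in both comparisons. The TWEAK effect on Cdh16 was lower at 24 h than at 6 h by 0.35 on the log2 scale (-0.35, SE 0.07, adjusted p = 0.0021, edgeR interaction term), with log2 fold changes of -0.07 at 6 h and -0.42 at 24 h. All 3 TWEAK samples lay below all 3 vehicle samples at 24 h, and the samples overlapped at 6 h. Over 23 alternatives the difference ranged from -0.38 to -0.32. All of them kept the call, leaving aside the fit without the TWEAK libraries with Ins2 reads at 24 h.

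The NIK SMI1 effect on Cdh16 was higher at 24 h than at 6 h by 0.40 (SE 0.07, adjusted p = 0.00165, edgeR interaction term), with differences of 0.15 at 6 h and 0.54 at 24 h from the TWEAK samples. All 3 samples with NIK SMI1 lay above all 3 TWEAK samples at both times. Over 23 alternatives the difference ranged from 0.35 to 0.42. Leaving aside the same fit, all of them kept the call. Both terms contain the same TWEAK samples. The groups hold 3 samples each, too few to examine single samples for outlying values.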

How the results depend on the processing

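Of 1065 alternative values for single markers, 1047 kept their side of the threshold, 15 lost their call, 3 gained one and 0 reversed. These counts include the fit without the TWEAK libraries with Ins2 reads at 24 h, which left 1 TWEAK sample there. Direction was compared only where a fit called the gene. Some values that passed in no fit changed sign and are among the 1047. For Anpep with NIK SMI1 against TWEAK at 6 h, the main value was 0.13 and the alternatives ranged from -1.25 to 0.56. Apart from the fit without the TWEAK libraries with Ins2 reads, Cdh16 kept its calls at 24 h in all alternatives. Its values were -0.43 to -0.40 for TWEAK and 0.50 to 0.57 for NIK SMI1. Cubn likewise kept its calls with TWEAK at 6 h (-0.66 to -0.48) and at 24 h. In the fit set apart, the TWEAK effect on Cubn at 24 h was -0.38, against -0.51 in the main fit. The number of called markers for 24 h against 6 h in vehicle was 1 without the filter on low counts and 1 with DESeq2, where Cubn did not pass (adjusted p = 0.0622 and 0.0587), and 1 to 2 when single samples were left out. Without single samples it was 1 to 2 for TWEAK against vehicle at 6 h and 0 to 1 for TWEAK with NIK SMI1 against vehicle at 24 h. The cause was not tested. RPKM computed with TMM library sizes moved the mean level of 1 of the 10 markers by more than the spread within groups (Cdh16, 8.06 against 7.71 RPKM).

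The fit without the 2 TWEAK libraries with Ins2 reads at 24 h was chosen after seeing the data. It left TWEAK sample 2 alone at 24 h, so its calls over all genes are not given. Leaving out NIK SMI1 sample 2 at 6 h lowered 1714 calls for NIK SMI1 against TWEAK at 6 h to 1138 and 2163 against vehicle to 1400. The NIK SMI1 interaction term had 734 calls in the main fit and 388 without that sample. It had 426 without TWEAK sample 1 at 6 h, 483 without TWEAK sample 2 and 401 without NIK SMI1 sample 3 at 24 h. No paired analysis was possible because the labels carry no replicate numbers. The depth gave Lrp2, Anpep and Aqp1 only 0 to 18 reads per sample, which limits the precision of their values.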

Other observations

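Genes of the podocyte and urothelial lists moved with the treatments although Nphs1, Upk2 and Upk3a, defining markers of podocytes and urothelium, had 2 to 22 reads in all. Synpo, an actin-associated protein that other epithelia also express, fell with TWEAK at 6 h (-0.74) and 24 h (-0.97) on the log2 scale and was higher with NIK SMI1 than with TWEAK alone (0.40 and 0.49), and Podxl did the same with smaller values (-0.18 and -0.45, then 0.19 and 0.24). The keratin Krt20 fell by 0.54 at 24 h (log2 fold change -0.54, adjusted p = 6.21e-15, edgeR) and the uroplakin Upk1a rose by 0.62 (adjusted p = 0.00586), while Upk1b, at 0.264 RPKM, fell (-1.44, adjusted p = 0.00102). In the endothelial list 2 of 6 genes were tested, in the fibroblast list 3 of 7 and in the leukocyte list 1 of 7. The genes of these lists called for TWEAK against vehicle were Cdh5 (1.57 at 24 h, adjusted p = 0.0307, edgeR, at 0.0486 RPKM, with overlapping samples) and Col1a1 (-0.34 at 6 h, adjusted p = 0.0109). The only tested leukocyte gene, Cd68, was not called.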
